A study of Mus musculus with 6 samples.

Results

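The colony-stimulating factor axis comprises the cytokines that support macrophages and granulocytes, and the receptors that read them. The 8 genes described here were chosen by gene symbol as ligands made by the vessel wall (Csf1, Il34, Csf2 and Csf3) set against receptor chains of myeloid cells (Csf1r, Csf2ra, Csf2rb and Csf2rb2). All 8 had a row among the 36557 gene rows of the deposited tables, and 7 were among the 17392 genes with enough counts for a test. Csf3 did not pass that filter and is given by its counts. The CSF3 receptor gene Csf3r is not 1 of the 8 and is shown beside them as the partner of Csf3.

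RNA had been sequenced from the aortic arch together with the thoracic aorta of mice fed a high-fat diet (HFD in the labels) for 4 weeks, to examine what loss of the microRNA miR-26b does to the atherosclerotic vessel. The 3 libraries of the genotype Apoe-/- MiR26b-/- were set against 3 of the genotype Apoe-/- control. Both groups thus lacked apolipoprotein E, whose loss raises plasma cholesterol, and both had the same diet, so there was no Apoe-sufficient or chow-fed library. The labels used here give neither age nor sex, do not say in which cells the microRNA was deleted, and leave unsaid whether the libraries of a group are different mice. The tests below therefore weigh differences against the variation among these 6 libraries, which may be technical.

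CSF1 and IL34 are alternative ligands of 1 receptor tyrosine kinase, CSF1R, whose signal keeps macrophages alive and drives monocytes to become macrophages. CSF2 binds its own alpha chain, encoded by Csf2ra, which then pairs with a beta chain shared with the receptors of IL3 and IL5. In the arterial wall, endothelial cells and smooth muscle cells are known sources of CSF1, and macrophages carry CSF1R.

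The libraries held between 51634139 and 54817547 deposited counts each. Apoe-/- MiR26b-/- replicate 3 stood apart from its group. On the first principal component, which held 61.9% of the variance, it scored 0.97, against 47.05 and 55.72 for the other MiR26b-/- libraries and -45.35 to -25.42 for the controls. Results for Csf1, Csf3 and the receptor genes among the members are therefore also given without it. It was singled out as the MiR26b-/- library nearest to the controls. Leaving it out therefore tends to widen the group differences and lower the p-values, and those values are no separate support for a difference. Of all tested genes, 1131 (6.5%) were called higher and 667 (3.84%) lower in MiR26b-/- aortas by edgeR's quasi-likelihood test at a Benjamini-Hochberg adjusted p under 0.05, and the median log2 fold was -0.003. Markers of smooth muscle, the main cell of the aortic wall, had the largest summed level of the marker lists in each library, and no marker gene was at 0 in all libraries. The microRNA itself was not analysed here.

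The deleted microRNA and its family member miR-26a carry the same seed, the stretch that pairs with target mRNAs, and both are shown because the members' mRNAs were searched for it. The mature sequences are those of RefSeq (GRCm38.p6), at chr1:74394324-74394344 on the plus strand for miR-26b and at chr9:119031811-119031832 on the plus strand for miR-26a, and capitals mark seed bases 2 to 8.
miR-26b-5p: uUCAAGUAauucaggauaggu
miR-26a-5p: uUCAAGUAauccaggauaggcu
None of the 8 members, nor Csf3r, held even the 6-base seed match ACUUGA in its longest annotated 3′ UTR. Among 21020 genes with a 3′ UTR, 31.55% held that match and 4.19% held the full 8-base match UACUUGAA. Those UTRs ranged from 317 bases in Csf2 to 2111 bases in Csf1. A missing match says only that these letters are not in that stretch of the mRNA.

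In MiR26b-/- aortas the 4 receptor genes rose, by 2.14-fold for Csf1r and 2.77-fold for Csf2ra, and by 5.25-fold and 6.15-fold for the beta chains Csf2rb and Csf2rb2. Among the ligands, Csf1 rose by 1.19-fold, and Il34 and Csf2 did not pass the test. Thus 5 of the 7 tested members were called higher and 0 lower, where 6.5% of all tested genes were called higher. None of these 7 passed the filter through a single group, since the lowest deposited count of any of them in any library was 12.1.

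**Figure D1:**
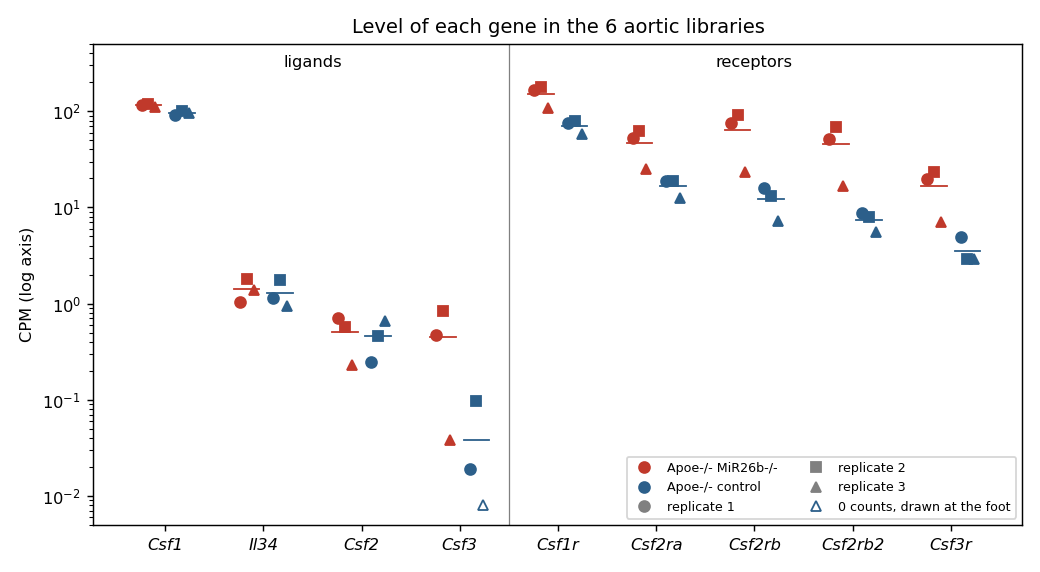
Level of each ligand and receptor gene in CPM (counts per 1000000, log axis) in the 6 libraries, with Apoe-/- MiR26b-/- in red to the left of Apoe-/- control in blue; symbols give the replicate and bars the group mean. The receptor genes separate the groups, with MiR26b-/- replicate 3 the lowest red point of each, while Csf1 separates them by a small step and Il34 and Csf2 overlap.

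Csf1 encodes macrophage colony-stimulating factor, which is made both as a secreted and as a membrane-held protein. In counts per 1000000 counts of the library (CPM), its levels were 116, 118 and 111 in the MiR26b-/- libraries, against 92.4, 101 and 95.7 CPM in the controls. The groups did not overlap, and replicate 3 was close to the other MiR26b-/- libraries. Groups with all 3 MiR26b-/- libraries above all controls occurred in 18.9% of all tested genes. The log2 fold was 0.25 ± 0.06 (SE, n = 3 each; edgeR adjusted p = 0.0414). In rank, 22.6% of tested genes had a higher log2 fold than Csf1. The call was lost when limma-voom took the place of edgeR (adjusted p = 0.0504, where 3.21% of genes were called higher) and when any 1 library other than MiR26b-/- replicate 3 was left out, whereas without that replicate, when 17.2% of tested genes were called higher, the log2 fold was 0.28 (edgeR adjusted p = 0.0131).

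Il34 encodes the other CSF1R ligand, best known from keratinocytes and neurons. It had 1.05, 1.82 and 1.40 CPM in the MiR26b-/- libraries, against 1.13, 1.75 and 0.951 CPM in the controls. The highest library of both groups was replicate 2, and the groups overlapped throughout. Its log2 fold was 0.16 ± 0.31 (edgeR adjusted p = 0.765). A nominal 95% interval from the normal distribution ran from -0.44 to 0.76. It is narrower than an interval from the F-test, which has few degrees of freedom with so few libraries. Changes within that interval, and some beyond it, could not be told from none with these libraries.

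Csf2 encodes granulocyte-macrophage colony-stimulating factor. Between 12.1 and 38.4 deposited counts per library were assigned to it. Its levels were 0.711, 0.569 and 0.227 CPM in the MiR26b-/- libraries, against 0.246, 0.461 and 0.666 CPM in the controls, so the extremes of both groups lay at about the same levels. Its log2 fold was 0.14 ± 0.50 (edgeR adjusted p = 0.881), with an interval from the normal distribution of -0.85 to 1.13 that is likewise too narrow. Il34 and Csf2 both changed sign when single libraries were left out.

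Csf3 encodes granulocyte colony-stimulating factor, which drives neutrophil production. The deposited counts were 25.3, 43.8 and 2.0 in the MiR26b-/- libraries, against 1.0, 5.4 and 0.0 in the controls. Replicates 1 and 2 of the MiR26b-/- group were above all other libraries, and replicate 3 lay within the range of the controls. The difference gave p = 0.2 in a two-sided exact permutation test on CPM, where 0.1 is the smallest p that 3 libraries against 3 allow. Without the low-count filter, edgeR gave a log2 fold of 3.47 (adjusted p = 0.129). DESeq2, by which 11.7% of genes were called higher, gave 3.54 (adjusted p = 0.0432), and edgeR without MiR26b-/- replicate 3 gave 4.01 (adjusted p = 0.0119). Without control replicate 1, 2 or 3, edgeR gave log2 folds of 3.16, 5.24 and 2.91, none of them called (adjusted p = 0.274, 0.144 and 0.265), and without MiR26b-/- replicate 1 or 2 Csf3 did not pass the filter. In the fits that left out 1 library, Csf3 thus passed the filter only through MiR26b-/- replicates 1 and 2, where it was high. Those fits are therefore no evidence of a difference. The values above also differ in their calls, so no direction is given for Csf3. Summed neutrophil markers were 68.8, 122 and 15.7 rescaled TPM (the authors' per-length level) in the MiR26b-/- libraries, against 29.2, 17.7 and 7.41 in the controls, and 0 of the 7 tested neutrophil markers were called in either direction. The part of neutrophils in the Csf3 counts was not tested.

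Csf1r encodes the receptor of CSF1 and IL34. It had 166, 179.8 and 109 CPM in the MiR26b-/- libraries, against 75.3, 78.5 and 58.4 CPM in the controls. All MiR26b-/- libraries were above all controls, and replicate 3 took a place between the other MiR26b-/- libraries and the controls. The log2 fold was 1.10 ± 0.21 (edgeR adjusted p = 0.0325), and 1.29 without that replicate (adjusted p = 0.00116). In bulk tissue, more cells of a type and more RNA per cell cannot be told apart. Of the 31-base stretches of the Csf1r transcripts, 14.6% also occur in transcripts of the overlapping gene Hmgxb3, which had 28.6 ± 1.75 CPM in MiR26b-/- aortas and 31.8 ± 1.62 CPM in controls (SD, n = 3 each; edgeR adjusted p = 0.195).

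Csf2ra encodes the alpha chain that binds CSF2. Its levels were 52.1, 61.7 and 25.4 CPM in MiR26b-/- libraries, against 18.7, 18.9 and 12.6 CPM in controls. The groups did not overlap, with replicate 3 nearest to the controls. The log2 fold was 1.47 ± 0.34 (edgeR adjusted p = 0.0440), and 1.76 without replicate 3 (adjusted p = 0.00128).

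Csf2rb encodes the beta chain common to the CSF2, IL3 and IL5 receptors, through which the signal passes into the cell. It had 75.8, 91.5 and 23.5 CPM in MiR26b-/- libraries, against 15.7, 13.3 and 7.30 CPM in controls. Replicate 3 was once more the lowest MiR26b-/- library and lay above the highest control. The log2 fold was 2.39 ± 0.53 (edgeR adjusted p = 0.0420), and 2.79 without replicate 3 (adjusted p = 0.00139).

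Csf2rb2 encodes a second beta chain that mice have and that serves the IL3 receptor. Levels were 51.9, 68.7 and 16.5 CPM in MiR26b-/- libraries, against 8.73, 7.99 and 5.55 CPM in controls. The groups did not overlap here either, and replicate 3 had the lowest MiR26b-/- value. The log2 fold was 2.62 ± 0.51 (edgeR adjusted p = 0.0340), and 3.02 without replicate 3 (adjusted p = 0.000453). Only 0.535% of tested genes had a higher log2 fold.

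All 4 receptor calls depended on the full set of libraries. Leaving out any 1 library other than MiR26b-/- replicate 3 ended each of them, with log2 folds still at least 0.96, 1.21, 2.04 and 2.20 for Csf1r, Csf2ra, Csf2rb and Csf2rb2. Under limma-voom only the call of Csf1r was kept (adjusted p = 0.0416), and the other 3 had adjusted p-values of 0.0715, 0.0812 and 0.0831.

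**Figure D2:**
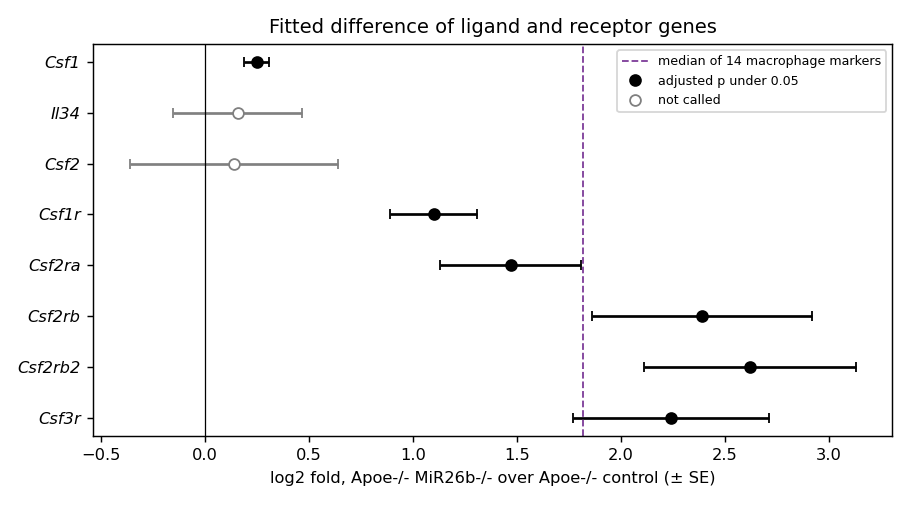
Fitted log2 fold of each tested gene, Apoe-/- MiR26b-/- over Apoe-/- control, with its standard error (edgeR, n = 3 each); filled points passed at adjusted p under 0.05 and the dashed line is the median of the 14 macrophage markers. Csf1r (1.10) and Csf2ra (1.47) lie left of that line at 1.82, and Csf2rb (2.39), Csf3r (2.24) and Csf2rb2 (2.62) lie right of it.

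The 2 beta chain genes are neighbours on chromosome 15, 20030 bases apart, at chr15:78325752-78353847 on the plus strand for Csf2rb and chr15:78282507-78305721 on the minus strand for Csf2rb2 (GRCm38). Over 2631 aligned coding bases 95.2% were identical. A pair of stretches is shown because reads from such a pair are shared between the genes: the first 60 coding bases, which differ at 1 base, and the 60-base stretch with the most differences, 13, from coding base 304 of Csf2rb and 307 of Csf2rb2. Capitals mark the bases that differ.
Csf2rb, first bases: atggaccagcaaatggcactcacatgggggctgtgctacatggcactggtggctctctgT
Csf2rb2, first bases: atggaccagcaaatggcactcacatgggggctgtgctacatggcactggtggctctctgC
Csf2rb, most differences: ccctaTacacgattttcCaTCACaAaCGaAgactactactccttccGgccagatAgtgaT
Csf2rb2, most differences: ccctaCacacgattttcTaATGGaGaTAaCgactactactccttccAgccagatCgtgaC
Of the 31-base stretches of the annotated transcripts, 18.8% of those of Csf2rb also occur in Csf2rb2, and 28.6% of those of Csf2rb2 also occur in Csf2rb. Since kallisto divides a shared read between its possible sources, the split between these 2 genes is less certain than their sum. The ratio of Csf2rb to Csf2rb2 in rescaled TPM was 1.72, 1.66 and 1.95 in MiR26b-/- libraries, against 2.42, 2.36 and 1.94 in controls, so MiR26b-/- replicate 3 and control replicate 3 overlapped. The profiles of Csf2rb and Csf2rb2 over the 6 libraries were the nearest among pairs of members.

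Csf3r, the receptor of CSF3, had 19.7, 23.6 and 6.99 CPM in MiR26b-/- libraries, against 4.88, 2.88 and 2.91 CPM in controls. It rose by 4.71-fold (log2 fold 2.24 ± 0.47, edgeR adjusted p = 0.0384), without overlap between the groups. Of its 31-base stretches, 23.1% are shared with other annotated genes.

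Levels of different genes can be compared only per length, on the rescaled TPM scale. In MiR26b-/- aortas the order of the means was Csf2ra at 73.3 ± 30.96, Csf1r at 63.4 ± 16.3, Csf1 at 54.1 ± 2.30, Csf2rb at 27.3 ± 14.7, Csf2rb2 at 15.9 ± 9.35, Il34 at 2.25 ± 0.794, Csf2 at 1.39 ± 0.696 and Csf3 at 0.581 ± 0.514 (SD, n = 3). In controls it was Csf1 at 44.2 ± 2.21, Csf1r at 29.7 ± 4.88, Csf2ra at 23.9 ± 6.69, Csf2rb at 6.004 ± 2.10, Csf2rb2 at 2.63 ± 0.680, Il34 at 2.01 ± 0.448, Csf2 at 1.24 ± 0.568 and Csf3 at 0.0522 ± 0.0700 (SD, n = 3). Csf1 was thus the most abundant member in controls and stood behind Csf2ra and Csf1r in MiR26b-/- aortas, where the first 3 did not differ beyond their spread. The SD ranges of Il34 and Csf2 overlapped in part in MiR26b-/- aortas, and neither mean lay within the range of the other. By percentile among tested genes, Csf1r stood above 86.4% of them in MiR26b-/- aortas and above 72.3% in controls, and Csf2rb stood above 69.4% in MiR26b-/- aortas and above 39.6% in controls.

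**Figure D3:**
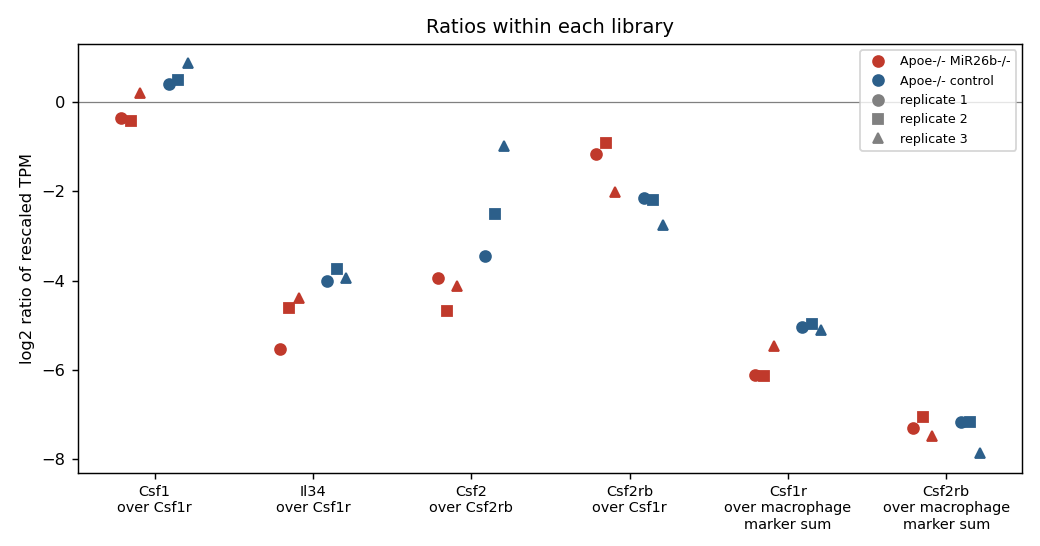
Ratios on the rescaled TPM scale (log2) in each library, Apoe-/- MiR26b-/- in red to the left of Apoe-/- control in blue, with symbols for the replicate. The ratios of ligand to receptor and of Csf1r to summed macrophage markers are lower in all 3 MiR26b-/- libraries than in all controls, Csf2rb over Csf1r is higher, and Csf2rb over the macrophage marker sum overlaps.

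Ligand set against receptor, the ratio of Csf1 to Csf1r in rescaled TPM was 0.772, 0.747 and 1.16 in MiR26b-/- libraries, against 1.33, 1.40 and 1.81 in controls. All MiR26b-/- libraries were below all controls, and Csf1 exceeded its receptor in replicate 3 but not in replicates 1 and 2 of the MiR26b-/- group. On the log2 scale the difference was -0.78. For Il34 over Csf1r it was -0.95 and for Csf2 over Csf2rb -1.94, again without overlap. Of these genes only the receptors were called in the fit. Csf2 over Csf2rb was 0.0646, 0.0388 and 0.0570 in MiR26b-/- libraries, against 0.0920, 0.175 and 0.502 in controls. Its log2 SD in controls was 1.24, with control replicate 3 far above the others, and Csf2 had few counts. The ratio of the ligands Csf1 and Il34 to each other overlapped between the groups, with a log2 difference of 0.17. These ratios were chosen with earlier results known and carry no test.

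Ratios between receptors are likewise a description with no test. Csf2rb over Csf1r was 0.445, 0.526 and 0.247 in MiR26b-/- libraries, against 0.226, 0.218 and 0.148 in controls, a log2 difference of 1.0 without overlap. The lowest MiR26b-/- value, of replicate 3, was close to the highest control value. Csf2ra over Csf2rb differed by -0.51 on the log2 scale without overlap, while Csf2ra over Csf1r overlapped.

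Macrophage markers moved with the receptors. Of 14 such markers, 12 rose, led in level by Lyz2, C1qb and C1qa, and Mertk, a receptor for dying cells, fell by 0.26 on the log2 scale (edgeR adjusted p = 0.0443). The lymphatic and resident macrophage marker Lyve1 had a log2 fold of 0.29 and was not called (edgeR adjusted p = 0.333). Their median log2 fold was 1.82, and their summed level was 4832, 5316 and 1979 rescaled TPM in MiR26b-/- libraries, against 1037, 1047 and 833 in controls. As with the receptors, replicate 3 was the lowest MiR26b-/- library and lay above the controls. The ratio of Csf1r to this sum was 0.0144, 0.0142 and 0.0227 in MiR26b-/- libraries, against 0.0306, 0.0318 and 0.0290 in controls. It was lower in all MiR26b-/- libraries, by 0.87 on the log2 scale, whereas the ratio of Csf2rb to the same sum overlapped between the groups with a log2 difference of 0.13. Lyz2 alone made up 52.1% to 59.4% of the marker sum in MiR26b-/- libraries, against 43.5% to 48.2% in controls. With Lyz2 left out of the sum, a choice made after the data were seen, the log2 differences were -0.56 for Csf1r and 0.44 for Csf2rb, and the overlap was as before. Dendritic cell markers summed to 46.2 to 88.6 rescaled TPM in MiR26b-/- libraries, against 22.4 to 27.5 in controls, and 4 of their 8 genes rose. Itgax, which macrophages also express, had the largest log2 fold of the 8 (3.13), with 92.2, 108.7 and 32.5 CPM in MiR26b-/- libraries, against 11.3, 8.32 and 7.09 CPM in controls. Zbtb46, Clec9a and Siglech had log2 folds of 0.07, 0.45 and -0.41 and were not called. Fibroblast markers summed to 4491 to 5751 rescaled TPM in MiR26b-/- libraries, against 3370 to 3763 in controls, and 4 of 8 rose. Smooth muscle markers summed to 17617 to 20414 in MiR26b-/- libraries, against 25375 to 29550.4 in controls, and 4 of 8 fell. Sums of monocyte, neutrophil, T cell, B cell, mast cell, endothelial and perivascular adipocyte markers overlapped between the groups, and 2 of 7 monocyte markers, 1 of 11 T cell markers and 2 of 8 endothelial markers rose. The share that rose was 6.5% and the share that fell 3.84% over all tested genes, and the T cell count is close to the first of these. The part of the cell makeup in the receptor and ligand levels was not tested.

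**Figure D4:**
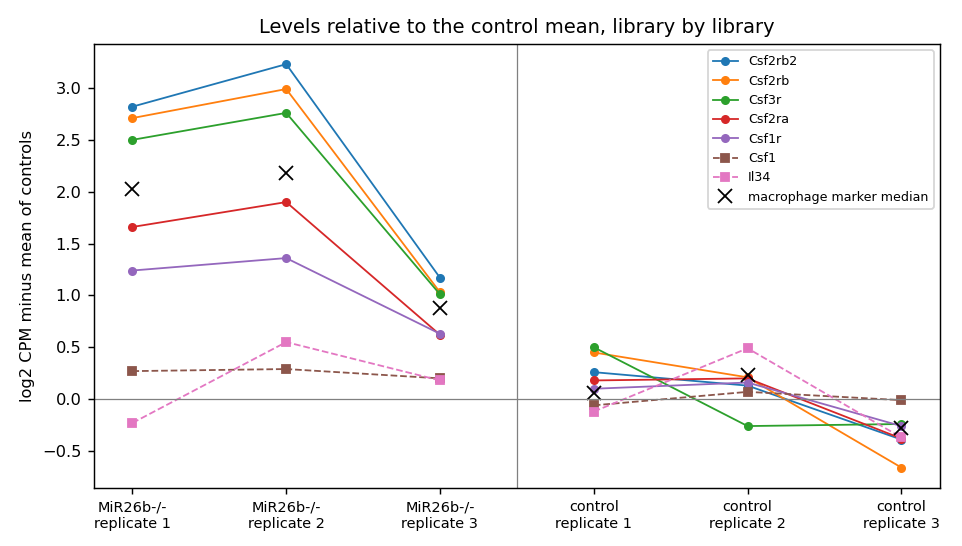
Level of each gene in each library as log2 CPM minus the mean of the controls, with Apoe-/- MiR26b-/- libraries on the left and Apoe-/- control libraries on the right; lines join the libraries of 1 group only to guide the eye, and crosses give the median of the 14 macrophage markers. In MiR26b-/- replicate 3 the receptors (0.62 to 1.17) and the marker median (0.88) are closer to the controls than in replicates 1 and 2, while Csf1 (0.20) is not far from its other values (0.27 and 0.29).

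Seen library by library, the values relative to the control mean were 1.24, 1.36 and 0.63 for Csf1r in MiR26b-/- replicates 1, 2 and 3 on the log2 CPM scale, and 2.82, 3.23 and 1.17 for Csf2rb2. The macrophage marker median was 2.03, 2.18 and 0.88 in the same libraries. Csf1r was therefore below the marker median in each MiR26b-/- library, and Csf2rb2 above it.

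The genes whose profile over the 6 libraries was nearest to each member, by root mean square distance of centred log2 CPM, differed between ligands and receptors. For Csf1r they were Rgs10, Cfb and Xdh at distances of 0.029 to 0.051, and for Csf2ra Evl, Slc7a8 and Slc43a2. The nearest to Csf2rb were Cxcr4, Plek and C3ar1, and those nearest to Csf2rb2 were Lilrb4a, Tlr13 and Ms4a6d. Csf1 was nearest to Gng10, Rps21 and Txndc12, at 0.018 to 0.025, among profiles that vary little. Csf2 had no near profile, the closest being Ano4 at 0.364. The distances describe 6 libraries that share 2 genotypes, and genes with near-identical copies, such as Lilrb4a and Rps21, may have had reads divided among them.

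Promoter windows from RefSeq (GRCm38.p6), 250 bases before to 50 after the start, were found for 4 of the 8 members. They were searched on both strands for the core of PU.1, the product of Spi1 and a master factor of myeloid genes, since Spi1 rose with the receptors. The letters GAGGAA, or TTCCTC when read on the other strand, occurred in 28.28% of 32851 windows. Csf2ra held 2 matches, 8 and 14 bases before the start, Csf2rb2 held 2, and Csf1 and Csf2 held 0. The Csf2 window (chr11:54249850-54250149, minus strand) lay wholly upstream of the gene as GENCODE places it (chr11:54247271-54249667). The bases next to the GENCODE start of Csf2 were thus not searched, for this motif or the next. The window of Csf3r, which is not 1 of the 8, held 1 match, 86 bases before the start. The windows of Csf2ra (chr19:61228369-61228668, minus strand), Csf2rb2 (chr15:78305672-78305971, minus strand) and, for contrast, Csf1 (chr3:107760420-107760719, minus strand) are given with these matches in capitals.
Csf2ra: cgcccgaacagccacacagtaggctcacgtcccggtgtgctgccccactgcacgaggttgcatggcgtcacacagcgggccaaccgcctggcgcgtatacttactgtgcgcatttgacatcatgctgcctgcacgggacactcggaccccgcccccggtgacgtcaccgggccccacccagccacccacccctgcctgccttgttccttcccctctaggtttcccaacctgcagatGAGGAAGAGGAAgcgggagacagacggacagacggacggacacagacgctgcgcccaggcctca
Csf2rb2: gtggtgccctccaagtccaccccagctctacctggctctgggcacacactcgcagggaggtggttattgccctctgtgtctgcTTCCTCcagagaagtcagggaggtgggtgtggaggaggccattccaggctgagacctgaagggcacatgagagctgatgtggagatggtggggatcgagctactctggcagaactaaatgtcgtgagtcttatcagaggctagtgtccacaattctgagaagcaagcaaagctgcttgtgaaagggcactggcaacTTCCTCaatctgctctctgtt
Csf1: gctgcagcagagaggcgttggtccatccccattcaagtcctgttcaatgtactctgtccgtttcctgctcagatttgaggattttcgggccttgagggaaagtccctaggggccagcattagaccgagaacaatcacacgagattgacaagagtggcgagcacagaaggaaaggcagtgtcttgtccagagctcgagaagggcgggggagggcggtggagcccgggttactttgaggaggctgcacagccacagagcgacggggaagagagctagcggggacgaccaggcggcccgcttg
An NF-kB-like motif, GGGANNNNCC, gave 3 matches in the Csf1 window, of which 2 are the same stretch read on opposite strands 1 base apart. It gave 1 match each in the windows of Csf2 and Csf3r and 0 in those of Csf2ra and Csf2rb2. Of all windows, 20.73% held it. Matches are descriptions of letters, not of binding.

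Transcription factors of the Csf1r gene rose in 3 of 7 cases and fell in 0, with a median log2 fold of 1.59, against 6.5% higher among all tested genes. Spi1 had 36.9, 47.0 and 16.7 CPM in MiR26b-/- libraries, against 8.75, 9.82 and 5.67 CPM in controls (log2 fold 2.05 ± 0.40, edgeR adjusted p = 0.0338). Runx1, a factor of early blood cell fate, rose by 1.97 on the log2 scale (edgeR adjusted p = 0.0456). Irf8, which acts in monocyte and dendritic cell development, had a log2 fold of 1.77 and missed the threshold (edgeR adjusted p = 0.0649).

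Among 20 proteins that carry the CSF1R signal, 7 rose and 0 fell, with a median log2 fold of 0.39, where 6.5% of all tested genes rose and 3.84% fell. Among the risers were Tyrobp, an adaptor of myeloid receptors (log2 fold 2.23), the Src family kinases Fgr (1.95) and Lyn (1.51), the lipid phosphatase gene Inpp5d (1.48), the kinase subunit gene Pik3cd (1.42) and the phospholipase gene Plcg2 (0.71). Tyrobp had 87.1, 99.8 and 35.1 CPM in MiR26b-/- libraries, against 16.5, 17.6 and 13.3 CPM in controls, with replicate 3 again the lowest of its group. Among the 13 that were not called, Ptpn6, a phosphatase that dampens signals, had a log2 fold of 1.61 (edgeR adjusted p = 0.0694), Grb2, an adaptor, 0.39 (adjusted p = 0.0675) and Shc1, another adaptor, 0.17 (adjusted p = 0.220).

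Of 15 JAK-STAT proteins downstream of the CSF2 and CSF3 receptors, 1 rose, 1 fell and 13 were not called, a median log2 fold of 0.08. The 6.67% of this list that rose is near the 6.5% of all tested genes, so the count is no result about the list. Socs3, a feedback inhibitor of cytokine receptors, had 70.1, 61.7 and 21.6 CPM in MiR26b-/- libraries, against 14.99, 12.5 and 10.9 CPM in controls (log2 fold 2.0 ± 0.42, edgeR adjusted p = 0.0387). Ptpn11, a phosphatase that aids receptor signalling, fell by 0.28. Cish, a STAT5 target, had a log2 fold of 0.47 (edgeR adjusted p = 0.266), and Stat5a and Stat5b had 0.04 and -0.07. Socs1 stood at 0.62 (edgeR adjusted p = 0.0532).

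Of the 5 genes that share the beta chains or receive CSF3, 4 were tested and Il3 was not. Il3ra, the IL3 alpha chain, had 19.8, 23.2 and 15.02 CPM in MiR26b-/- libraries, against 10.2, 10.7 and 8.98 CPM in controls, and rose by 1.94-fold (edgeR adjusted p = 0.0304). Il5ra, the IL5 alpha chain, was low, with 0.225, 0.285 and 0.284 CPM in MiR26b-/- libraries, against 0.643, 1.42 and 0.609 CPM in controls. It fell by 1.74 on the log2 scale (edgeR adjusted p = 0.0455), with control replicate 2 the highest library. Without that library the log2 fold was -1.24 and not called (adjusted p = 0.0846), and on log2(TPM + 1) it was -0.28 (limma adjusted p = 0.173). The same library stood apart in summed B cell markers, at 114.5 rescaled TPM, against 6.68 to 10.3 in the other libraries, and the part of those cells in the Il5ra level was not tested. Il5 was not called. The beta chains thus rose together with 2 alpha chains, Csf2ra and Il3ra, and not with Il5ra.

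CSF1R belongs to the class III receptor tyrosine kinases. Of 10 genes for its relatives and their ligands, 2 rose and 0 fell (median log2 fold 0.24), beside 6.5% higher and 3.84% lower among all tested genes. Flt3, a receptor of dendritic cell progenitors, had 2.71, 3.46 and 1.89 CPM in MiR26b-/- libraries, against 0.813, 1.08 and 0.380 CPM in controls (log2 fold 1.83 ± 0.40, edgeR adjusted p = 0.0406). Pdgfra, a fibroblast receptor that is also in the fibroblast marker list, rose by 1.34-fold. Of the other IL34 binding proteins, Ptprz1, a receptor phosphatase, fell to 76.2, 63.7 and 117 CPM in MiR26b-/- libraries, against 184, 181 and 176 CPM in controls (log2 fold -1.07 ± 0.21, edgeR adjusted p = 0.0347). Syndecan-1, encoded by Sdc1, had a log2 fold of 1.01 (edgeR adjusted p = 0.0538).

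A list around the induction of colony-stimulating factors held cytokines known to induce them, receptors and regulators, among them inhibitors of NF-kB. Of its 14 genes, 13 were tested. Of these, 4 rose and 0 fell (median log2 fold 0.40), beside 6.5% higher and 3.84% lower among all tested genes. The 4 include an inhibitor, so their number is not a count of inducers. Il1b had 19.0, 23.9 and 4.07 CPM in MiR26b-/- libraries, against 1.57, 1.21 and 0.437 CPM in controls. It rose by 14.6-fold (log2 fold 3.87 ± 0.76, edgeR adjusted p = 0.0340), and Il1a rose by 7.17-fold. Nfkbiz, an NF-kB cofactor, had 64.8, 74.9 and 70.5 CPM in MiR26b-/- libraries, against 41.6, 37.8 and 35.96 CPM in controls, and here replicate 3 lay between replicates 1 and 2. Its log2 fold was 0.87 ± 0.08 (edgeR adjusted p = 0.00945). Tnfaip3, an inhibitor of NF-kB, rose by 2.12-fold, and Tnf, at 1.18 CPM or less in every library, was not called (log2 fold 1.48 ± 0.70, edgeR adjusted p = 0.212).

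Among the ligands, the mRNAs of Csf2 and Csf3 are known to be short-lived through AU-rich elements. The pentamer AUUUA occurred 9 times in the 3′ UTR of Csf2, 6 times in that of Csf3, 4 times in Csf1, 3 times in Csf1r and once in Il34, and not in the 3′ UTRs of Csf2ra, Csf2rb or Csf2rb2. At least 1 copy occurred in 65.19% of all genes with a 3′ UTR, and at least 5 copies in 21.62%. Of 7 factors that act on such elements, 3 rose and 0 fell (median log2 fold 0.30; 6.5% of all tested genes rose and 3.84% fell), namely the decay factors Zfp36, Zfp36l1 and Zfp36l2. Zfp36 had 125, 118 and 155 CPM in MiR26b-/- libraries, against 87.4, 80.7 and 77.0 CPM in controls (log2 fold 0.70 ± 0.11, edgeR adjusted p = 0.0276), with replicate 3 the highest library. Membrane-held CSF1 is released by the protease ADAM17, whose gene Adam17 rose by 1.24-fold (edgeR adjusted p = 0.0411), 1 of 3 genes of CSF1 shedding and processing, while Furin and Rhbdf2 had log2 folds of 0.05 and 0.13 and were not called.

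The calls in these lists were lost, as those of the receptors were, when any 1 library other than MiR26b-/- replicate 3 was left out, except that Nfkbiz was still called without MiR26b-/- replicate 2. Under limma-voom, the calls of Tyrobp, Nfkbiz, Ptpn11, Il3ra, Flt3, Pdgfra, Ptprz1, Zfp36, Zfp36l1 and Zfp36l2 held. Their limma-voom adjusted p-values ran from 0.0107 for Nfkbiz to 0.0499 for Flt3 and Ptpn11. The same method ended the calls of Csf3r, Fgr, Lyn, Inpp5d, Pik3cd, Plcg2, Socs3, Il5ra, Spi1, Runx1, Il1a, Il1b, Tnfaip3 and Adam17, with adjusted p-values from 0.0519 for Adam17 to 0.113 for Fgr.

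**Figure D5:**
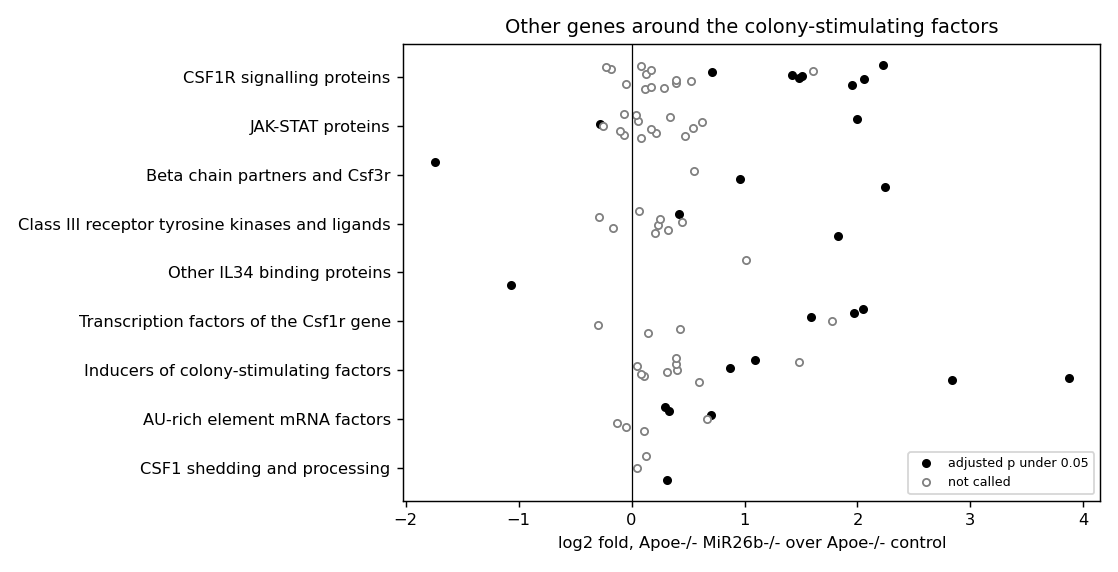
Fitted log2 fold, Apoe-/- MiR26b-/- over Apoe-/- control, of each tested gene in the 9 lists around the colony-stimulating factors; filled points passed at adjusted p under 0.05 (edgeR, n = 3 each). Called genes lie mostly to the right, from Zfp36l2 (0.30) to Il1b (3.87), with Il5ra (-1.74), Ptprz1 (-1.07) and Ptpn11 (-0.28) to the left.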

How the data were processed

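Gene-level tables of 6 libraries, 3 Apoe-/- MiR26b-/- and 3 Apoe-/- control, were used, with groups and replicate numbers from the sample labels. The submitters' processing notes name FastQC 0.11.8, Trim Galore 0.6.5, kallisto 0.46.2 and GRCm38. The deposited estimated counts are not whole numbers: single reads were worth between 0.9004 and 1.0685 depending on the library, as after division by a library factor, a step that is not given in the sources used here. The second table, taken as a signal, holds TPM values that the authors rescaled, since the deposited columns sum to between 955527 and 1034723. Whether the libraries keep strand is not given in the sources used here, so reads of overlapping genes may be mixed.

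After rounding to whole numbers, genes were kept by filterByExpr at its minimum count of 10, and libraries were scaled by TMM. The test was edgeR's quasi-likelihood F-test with genotype as the only term (edgeR 4.0.16, R 4.3.3). A gene was called where the p adjusted by Benjamini and Hochberg over 17392 genes was below 0.05, and the biological coefficient of variation was 0.164. CPM values use the TMM-scaled library sizes. Alternatives were DESeq2 1.42.0, limma 3.58.1 (voom, and log2(TPM + 1) or log2(TPM + 0.1)), other scalings and filters, a replicate block, summed symbols and each library left out. Replicates differed by more than sampling noise, so each library counts as 1 sample.

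The members and lists were chosen with earlier results of these data known, so their direction is no independent evidence. Named genes were the members and Csf3r, in each pathway list the genes that passed and up to 4 of lowest p, the 3 nearest profiles of each tested member, and up to 3 of the highest markers; Grb2, Shc1, Ptpn6, Hmgxb3, Zbtb46, Clec9a, Siglech, Cish, Stat5a, Stat5b, Tnf, Mertk and Lyve1 were added after their values were seen. A few genes that this rule names are not reported here. Coordinates, transcripts and 3′ UTRs come from the GENCODE annotation of GRCm38, miRNA and promoter sequences from RefSeq. Shared 31-base stretches were counted over annotated transcripts. The deposited totals were 51634139 to 54817547 per library, and standard errors reflect both counting error and the spread among libraries, which is wide also for well counted genes such as Csf2rb.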

Additional observations from a re-analysis of the deposited data

How the results depend on the processing

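Against 1131 higher and 667 lower calls in the edgeR fit, DESeq2 gave 2069 and 1291, limma on log2(TPM + 1) 461 and 251, limma on log2(TPM + 0.1) 641 and 301, and limma-voom 559 and 514 (52.1% higher, against 62.9%). Scaling by library size alone gave 1476 higher and 447 lower, 76.8% higher. Of the 5 members called higher, 1 was called by limma-voom, 0 on log2(TPM + 1) and 2 on log2(TPM + 0.1). DESeq2, by which 11.7% of genes were called higher, called all 5 and Csf3. In edgeR all 5 were also called with median-of-ratios, upper-quartile or library-size scaling, a minimum mean log2 CPM of 1, or summed symbols. Those fits called between 1116 and 1476 genes higher. Csf1 lost its call with no low-count filter (log2 fold 0.25, adjusted p = 0.0523), under limma-voom (0.25) and on log2(TPM + 1) (0.29, adjusted p = 0.0518). On log2(TPM + 1) the log2 folds were 1.05 for Csf1r, 1.51 for Csf2ra, 1.89 for Csf2rb and 2.04 for Csf2rb2, on log2(TPM + 0.1) 1.55, 2.05 and 2.36 for the last 3, and under limma-voom 1.40, 2.25 and 2.41, none of them called; the cause was not tested.

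Leaving out 1 library at a time moved the calls between 0 and 3051 higher and between 0 and 2028 lower, and the members called between 0 and 6. The 6, without MiR26b-/- replicate 3, include Csf3, which passed the filter there only through the group where it was high. Without control replicate 1 or 3, edgeR called 0 genes (in both cases 4056 had an unadjusted p below 0.05). The log2 folds ranged from 0.23 to 0.29 for Csf1, 0.96 to 1.29 for Csf1r, 1.21 to 1.76 for Csf2ra, 2.04 to 2.79 for Csf2rb and 2.20 to 3.02 for Csf2rb2. Il34 ranged from -0.06 to 0.44, with -0.06 without MiR26b-/- replicate 2 and -0.02 without control replicate 3. Csf2 ranged from -0.20 to 0.51, with -0.20 without MiR26b-/- replicate 1 and -0.16 without control replicate 1. The lists around the axis lost all their calls without any library other than MiR26b-/- replicate 3, except Nfkbiz, called without MiR26b-/- replicate 2. Over 36 other named genes, 413 of 609 alternative values kept their direction and call, 176 lost and 19 gained a call, and 1 changed sign (Furin, -0.02 without MiR26b-/- replicate 2, up to 0.12 without replicate 3).

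The labels do not say whether replicate numbers pair the libraries. After removal of the group means, same-numbered libraries correlated at -0.092, 0.234 and 0.076, and other pairs at -0.206 to 0.116. Such correlations cannot decide the question with so few libraries. With the replicate number as a block, edgeR called 1295 genes higher and 700 lower, kept the 4 receptor calls and gave Csf1 a log2 fold of 0.25 (adjusted p = 0.0566). Standard errors fell from 0.21 to 0.08 for Csf1r, 0.34 to 0.15 for Csf2ra and 0.53 to 0.23 for Csf2rb. They fell from 0.51 to 0.32 for Csf2rb2 and rose from 0.50 to 0.63 for Csf2. The block also ended the calls of Fgr (adjusted p = 0.0512), Tnfaip3 (0.0556) and Adam17 (0.0558). Csf3, with few counts, had a mean CPM difference of 0.409 and from 0.215 to 0.613 with 1 library left out.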
